A study of Sus scrofa with 16 samples.

Results

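The matrix metalloproteinases (MMPs) and their tissue inhibitors (TIMPs) were followed here in the left ventricle of infarcted pigs. They were the 10 genes MMP1, MMP2, MMP3, MMP9, MMP13, MMP14, TIMP1, TIMP2, TIMP3 and TIMP4, found as the probe sets whose only gene symbol was 1 of these names. The array carried 18 such probe sets among 23999 that were not controls, and these stood for 10 of 6765 named genes. A probe set is a group of short DNA probes that together read 1 transcript, and a gene with several was represented by the one with the highest mean over all 16 arrays, called its leading probe set.

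The study compared 8 pigs with a myocardial infarction (MI) with 8 that had sham surgery (Sham), both taken 3 weeks after the operation. All were Yorkshire x Landrace swine aged 2 to 3 months, with no transgene or drug named, and each group held 4 females and 4 males, the males all neutered. Each pig gave 1 Affymetrix porcine array, so every value comes from a separate animal. The labels name the left ventricle as the tissue without saying which part of the wall was taken or how far it lay from the scar.

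MMPs are zinc proteases that cut collagen, gelatin and other proteins of the extracellular matrix. They are made as inactive proenzymes, are switched on by removal of a propeptide, and are blocked by TIMPs, which bind the active site. In the infarcted heart the family is known for clearing damaged matrix and for its part in the later thinning and dilation of the wall. These arrays measure transcripts only, so neither the activation of an enzyme nor its inhibition was measured.

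The deposited values were log2 signals between 2.87 and 14.92, with a median of 6.23 on each array. The 23 probe sets made to match no pig transcript gave 368 readings from 3.08 to 4.99, and a signal at or under 4.99 is described as not above the no-target controls. Of the 10 genes, 6 had a group mean above that level: MMP2, MMP9, MMP14, TIMP1, TIMP2 and TIMP3. MMP1, MMP3, MMP13 and TIMP4 did not, in either group and with any of their probe sets. The 12 measured genes of 14 listed for ventricular cardiomyocytes had a mean signal per animal between 13.7 and 13.9, and 0 of them passed MI against Sham in limma (0 also at an unadjusted p under 0.05). Spike-in controls divided the arrays into a set A of 11 and a set B of 5, and set B held 2 MI animals and 3 Sham animals. The 3' over 5' actin signal, a measure of RNA integrity and labelling, was 2.64 ± 0.29 (SD, n = 11) in set A and 1.42 ± 0.14 (SD, n = 5) in set B on the log2 scale. The library MI 7 did not match its labelled sex, female: it had the Y-linked EIF1AY at 9.51, against 9.40 to 9.96 in the males and 3.00 to 3.51 in the other females.

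By leading probe set, 3 of the 10 genes were higher in MI at an adjusted p under 0.05 (MMP14, MMP9 and MMP13) and 1 was lower (TIMP4). Over all 6765 genes, 4.12% were higher and 3.5% lower at the same threshold, or 7.63% in either direction. The tests were two-sided and moderated by limma, with Benjamini-Hochberg adjustment over all 23999 probe sets, of which 10.5% passed. In MMP14, MMP9 and MMP13 every MI animal lay above every Sham animal, a separation found upward in 1.08% of genes. It was found in 2.88% of probe sets with no group mean above the controls, as for MMP13, and in 1% of the others. The median difference of the 10 genes was 0.08 on the log2 scale, against 0.00 for all genes. In whole tissue, fewer cells of a type and less RNA per cell cannot be told apart, and the same holds for more of either.

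**Figure D1:**
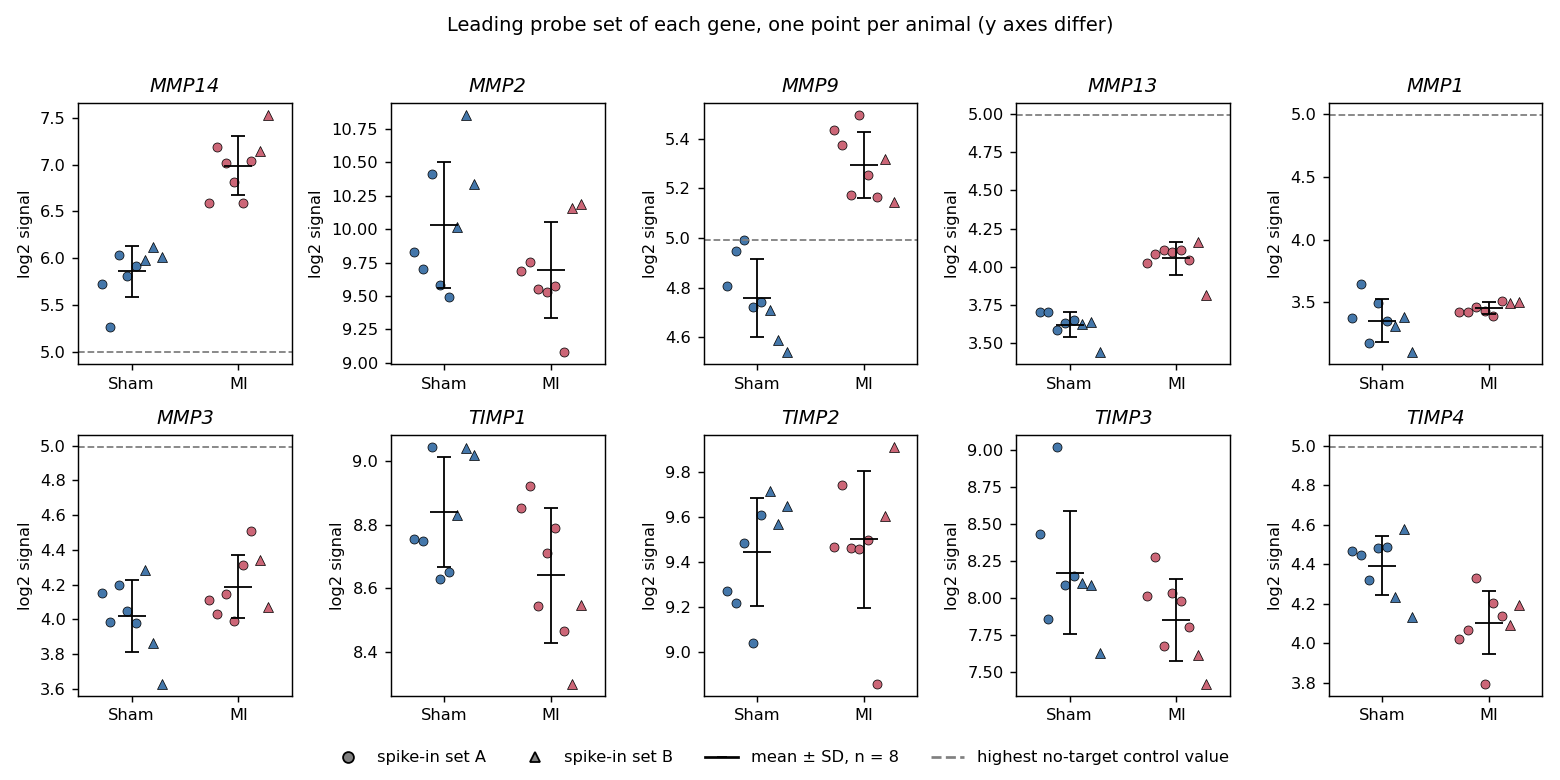
Log2 signal of the leading probe set of each of the 10 genes (vertical axes, which differ between panels) in the 8 Sham and 8 MI animals, with 1 point per animal, circles for spike-in set A, triangles for set B, and bars for the mean ± SD. MMP14, MMP9 and MMP13 have no overlap between the groups, while MMP13, TIMP4, MMP1 and MMP3 lie at or under the 4.99 of the no-target controls.

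MMP14 encodes a membrane-anchored MMP that cuts fibrillar collagen at the cell surface and activates pro-MMP2. It had 1 probe set, Ssc.734.1.S1_at, and the largest difference of the 10 genes. The 8 MI animals had a lowest signal of 6.59, a median of 7.03 and a highest of 7.53. The Sham animals ran from 5.26 through a median of 5.95 to 6.12. The lowest MI animal therefore stood above the highest Sham animal, and all 16 values were above the no-target controls. The group means were 6.99 ± 0.32 in MI and 5.86 ± 0.27 in Sham (SD, n = 8 each), a difference of 1.13 (SE 0.14, 95% interval 0.84 to 1.42) or 2.19-fold, with a limma adjusted p of 0.00014. Within spike-in set A the difference was 1.17 (adjusted p = 0.00152), in a fit where 8.57% of genes passed. In set B, with 5 animals, it was 1.30 (unadjusted p = 8.9e-05, adjusted p = 0.305), and 1 of all 23999 probe sets (0.00417%) passed there. Leaving out each animal in turn gave differences of 1.05 to 1.22, and all 16 such fits passed.

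The gelatinases MMP2 and MMP9 digest denatured collagen and basement membrane. Their differences had opposite signs, and only that of MMP9 passed. MMP2, read by Ssc.5713.1.S1_at, is made constitutively by fibroblasts and other stromal cells. Its MI signals ran from 9.08 through a median of 9.63 to 10.19, and its Sham signals from 9.49 through 9.92 to 10.85. The groups overlapped widely, with 1 MI animal below the lowest Sham animal. The means were 9.69 ± 0.36 in MI and 10.03 ± 0.47 in Sham (SD, n = 8 each), and the difference of -0.34 (SE 0.18, 95% interval -0.71 to 0.04) did not pass (limma adjusted p = 0.271). MMP2 signals were higher in set B than in set A in both groups, at 10.17 against 9.53 in MI and 10.40 against 9.80 in Sham. Blocking on the spike-in set gave -0.27 (adjusted p = 0.17), in a fit where 10% of genes passed. The MMP14 transcript passed upward, while the interval for the MMP2 transcript reached 0.04 at its upper end. Activation of the pro-MMP2 protein was not measured.

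MMP9, best known from neutrophils and macrophages, where it is stored or induced, was read by Ssc.16790.1.S1_at close to the level of the no-target controls. Its 8 MI signals ran from 5.15 through a median of 5.29 to 5.49 and all were above the controls. Its 8 Sham signals ran from 4.54 through a median of 4.73 to 4.99 and none was above them. The measured means were 5.29 ± 0.13 in MI and 4.76 ± 0.16 in Sham (SD, n = 8 each), a difference of 0.54 (SE 0.08) with a limma adjusted p of 0.000569. Because the Sham signal is only a bound, MMP9 was at least 1.23-fold higher in MI, taking the MI mean against the highest reading of the no-target controls. The difference was 0.49 within set A (adjusted p = 0.00574) and 0.62 within set B (adjusted p = 0.338).

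Neutrophils and macrophages, which can both make MMP9, were followed by marker lists. Of 13 neutrophil markers 5 were measured (S100A8, S100A9, S100A12, ELANE and LTF), none had a group mean above the controls, and none passed (2 at an unadjusted p under 0.05). Their mean signal per animal ranged from 4.05 to 4.52 in MI and from 4.17 to 5.25 in Sham. Of the 10 monocyte and macrophage markers measured of 16, 9 were above the controls and 1 passed, the endotoxin co-receptor CD14 (0.76, SE 0.14, adjusted p = 0.00314). Over all genes 7.63% passed in either direction. The median difference of the 10 macrophage markers was 0.09, with 9 positive. Within set A it was 0.32, with all 10 positive and 1 passing. The mean of that list ranged from 7.90 to 8.39 in MI and from 7.79 to 8.37 in Sham. Whether these cells contribute to the MMP9 difference was not tested.

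The collagenases MMP1 and MMP13 make the first cut in fibrillar collagen. MMP1, the interstitial collagenase, was read by Ssc.16013.1.S1_at and was not above the controls in any of the 16 animals. Its means were 3.45 ± 0.04 in MI and 3.35 ± 0.17 in Sham (SD, n = 8 each), with a limma adjusted p of 0.45. The 8 MI values were all above the Sham mean but lay inside the Sham range of 3.10 to 3.64.

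MMP13, the other collagenase, had a pair of probe sets that the array maker's names mark as opposite orientations. The leading one, Ssc.16053.1.S1_at, ran from 3.81 through a median of 4.09 to 4.17 in MI and from 3.44 through 3.63 to 3.70 in Sham. The groups did not overlap, yet every one of the 16 values was within the range of the no-target controls. The difference was 0.43 (SE 0.06, limma adjusted p = 0.000334), 0.42 in set A (adjusted p = 0.00191) and 0.42 in set B (adjusted p = 0.42). No fold is given because neither group was above the controls. Ssc.16053.1.A1_at went the other way, at 3.60 in MI and 3.73 in Sham (-0.13, adjusted p = 0.183), and the mean of both probe sets gave 0.15 (adjusted p = 0.0722). Passing at such low signal was common on these arrays: of the 7268 probe sets with no group mean above the controls 16.3% passed, against 8.02% of the other 16731.

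MMP3, or stromelysin 1, cleaves proteoglycans and activates other pro-MMPs. All 4 of its probe sets were under the controls, with group means between 3.16 and 4.19. Their names mark both orientations, and the leading one, Ssc.15927.2.A1_at, is marked A1, like the second probe set of MMP13. It differed by 0.17 (limma adjusted p = 0.328), and the others by 0.19, 0.08 and -0.08. The value of 0.19 belonged to Ssc.15927.1.S1_at, where 7 of 8 MI animals lay above the highest Sham animal (3.60 ± 0.12 against 3.41 ± 0.07, SD, n = 8 each). It had an adjusted p of 0.0532 and passed in 5 of 27 alternatives, among them when spike-in sets were blocked (adjusted p = 0.0386) and without MI 1 (adjusted p = 0.0388).

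**Figure D2:**
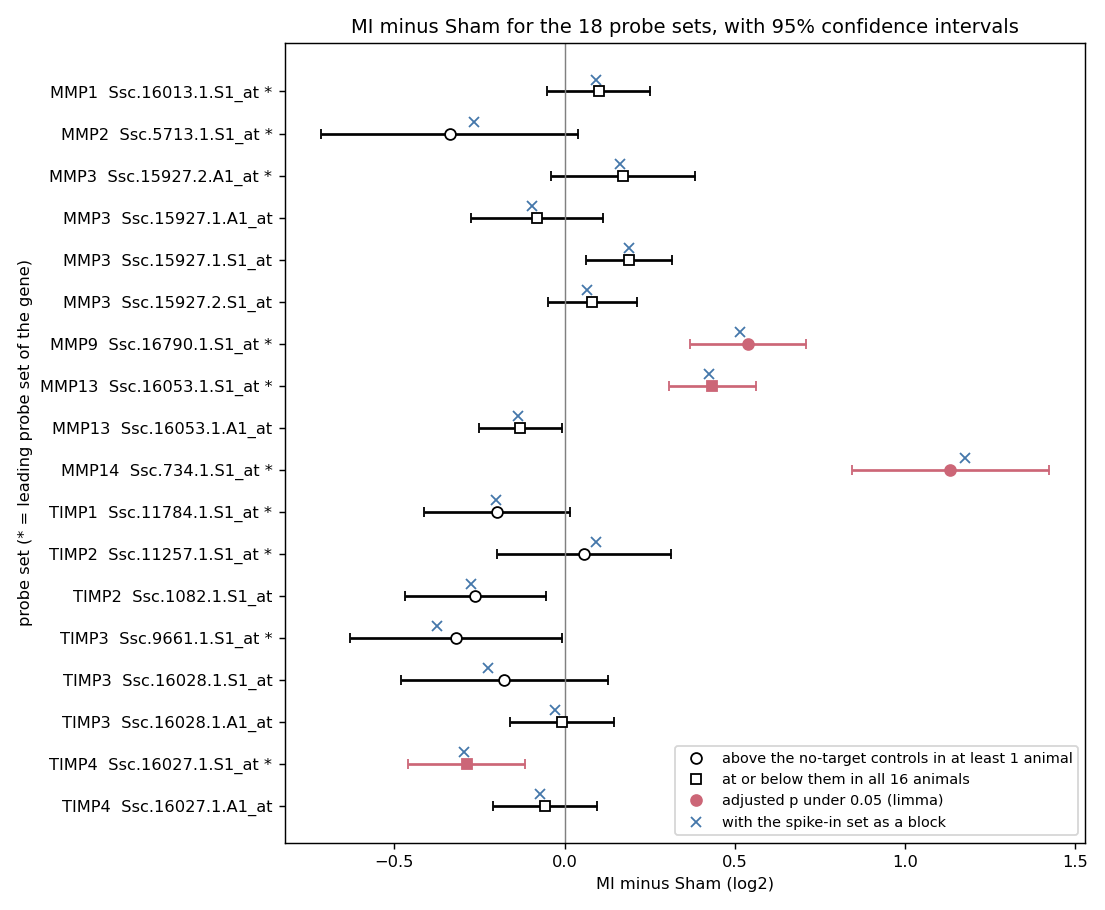
MI minus Sham difference in log2 signal (horizontal axis) with its 95% interval for each of the 18 probe sets of the 10 genes, over 8 animals per group. Only the intervals of MMP14, MMP9, the leading probe set of MMP13 and the leading probe set of TIMP4 belong to tests with an adjusted p under 0.05, and the second probe sets of MMP13 and TIMP4 had differences of -0.13 and -0.06.

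The inhibitors TIMP1, TIMP2 and TIMP3 were measured well above the controls, and none of their above-control probe sets passed. TIMP1 encodes a secreted inhibitor that binds pro-MMP9 and is induced by inflammatory cytokines. With Ssc.11784.1.S1_at its MI signals ran from 8.30 through a median of 8.63 to 8.92, and its Sham signals from 8.63 through 8.79 to 9.05. The groups overlapped, and their means were 8.64 ± 0.21 and 8.84 ± 0.17 (SD, n = 8 each). The difference of -0.20 (SE 0.10, 95% interval -0.41 to 0.02) had a limma adjusted p of 0.25. It was 0.00 within spike-in set A (adjusted p = 0.997) and -0.54 within set B (adjusted p = 0.366). The difference between the sets, -0.66 (SE 0.18), had an unadjusted p of 0.00218 and an adjusted p of 0.245, in a test chosen after the TIMP1 values were seen and passed by 0.00833% of probe sets.

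TIMP2 both inhibits MMPs and takes part in the activation of pro-MMP2 on the cell surface, as the bridge to MMP14. Its leading probe set, Ssc.11257.1.S1_at, had means of 9.50 ± 0.31 in MI and 9.45 ± 0.24 in Sham (SD, n = 8 each). The difference was 0.06 (95% interval -0.20 to 0.31, limma adjusted p = 0.839). Ssc.1082.1.S1_at gave 8.99 ± 0.15 and 9.25 ± 0.30, a difference of -0.26 (SE 0.10, adjusted p = 0.105). The pair thus disagreed in sign, and the second passed only when Sham 5 was left out (-0.32, adjusted p = 0.0466).

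TIMP3, the inhibitor that stays bound to the matrix and also blocks ADAM proteases, had 2 probe sets above the controls. Ssc.9661.1.S1_at had means of 7.85 ± 0.27 in MI and 8.17 ± 0.41 in Sham (SD, n = 8 each), a difference of -0.32 (SE 0.15) with an unadjusted p of 0.0461 and a limma adjusted p of 0.201. Blocked on spike-in set it was -0.37 (adjusted p = 0.057). Ssc.16028.1.S1_at pointed the same way with -0.18 (adjusted p = 0.515). Sham 3 had the highest value on both, at 9.02 and 8.59. The remaining probe set, Ssc.16028.1.A1_at, marked by its name as the opposite orientation to Ssc.16028.1.S1_at, was under the controls with a mean of 3.68 in both groups.

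TIMP4, the inhibitor known for its restriction to heart and a few other tissues, was the only one that passed, and it was not above the no-target controls in any animal. Ssc.16027.1.S1_at ran from 3.79 through a median of 4.12 to 4.33 in MI and from 4.13 through 4.46 to 4.58 in Sham. The groups overlapped, but all 8 MI animals were below the Sham mean and 4 were below the lowest Sham animal. The difference was -0.29 (SE 0.08, limma adjusted p = 0.0318), -0.36 within set A (adjusted p = 0.0286) and -0.17 within set B (adjusted p = 0.76). The call rested on single animals: it was lost without MI 1, MI 2, MI 4, Sham 1, Sham 2, Sham 4, Sham 5 or Sham 7, with adjusted p up to 0.0654, and differences of -0.32 to -0.23 over all 16 omissions. Its other probe set, Ssc.16027.1.A1_at, which its name marks as the opposite orientation, differed by -0.06 (adjusted p = 0.699). The mean of the pair differed by -0.17 (adjusted p = 0.119).

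The members' differences were then set side by side in females and males, 4 animals of each sex per group. MMP14 was higher by 1.16 in females (limma adjusted p = 0.00558) and by 1.10 in males (adjusted p = 0.00716), where 2.1% and 2.42% of all genes passed in either direction. MMP9 was higher by 0.54 in both sexes (adjusted p = 0.0191 in females and 0.0165 in males). MMP13 was higher by 0.38 in females (adjusted p = 0.025) and 0.49 in males (adjusted p = 0.00653). Without MI 7, the animal whose Y-linked signal did not match its label, the female values were 1.15 for MMP14 (adjusted p = 0.0167), 0.54 for MMP9 (adjusted p = 0.047) and 0.33 for MMP13 (adjusted p = 0.0769).

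No member passed the test of a difference between the sexes, and limma passed 0 of 23999 probe sets there (1363 at an unadjusted p under 0.05). TIMP2 and TIMP3 had the members' lowest interaction p-values among probe sets above the controls. TIMP3 differed by -0.59 in females and -0.05 in males with Ssc.9661.1.S1_at, and by -0.46 and 0.11 with Ssc.16028.1.S1_at. TIMP2 differed by -0.45 in females and -0.08 in males with Ssc.1082.1.S1_at. The unadjusted interaction p-values were 0.0841, 0.064 and 0.0763. The sexes were spread unevenly over the spike-in sets, with all 4 MI males in set A and 2 animals labelled female as the MI animals of set B. Blocking on the set gave -0.49 in females and -0.24 in males for Ssc.9661.1.S1_at, -0.38 and -0.05 for Ssc.16028.1.S1_at, and -0.44 and -0.09 for Ssc.1082.1.S1_at, with unadjusted interaction p-values of 0.369, 0.256 and 0.132. Without MI 7 the interaction p-values were 0.148, 0.0896 and 0.102. Between females and males over both groups no member passed either, where limma passed 0.0591% of genes. The members' lowest p there belonged to TIMP2 (Ssc.1082.1.S1_at, 0.21 higher in females, unadjusted p = 0.0447). With the set blocked in limma the lowest was that of TIMP3 (Ssc.16028.1.S1_at, 0.34 higher in females, unadjusted p = 0.019, adjusted p = 0.999). The same TIMP2 probe set then had an unadjusted p of 0.0458.

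An enzyme and its inhibitor were next compared within each animal, as the log2 signal of the MMP minus that of the TIMP. The level of such a value has no meaning across probe sets, and its change between groups can be read only where both signals are above the no-target controls. MMP14 minus TIMP2, which met this in all 16 animals, was higher in MI by 1.08 (SE 0.14) with no overlap. It gave an exact permutation p of 0.000155, the smallest that 12870 splits of 16 animals allow, or 0.000207 adjusted over the 4 pairs tested. MMP9 minus TIMP1 ran from -3.55 to -2.98 in MI and from -4.48 to -3.80 in Sham as measured. Since MMP9 was under the controls in all 8 Sham animals, the change over all 16 animals is a bound of at least 0.50, with MMP9 there set to the highest control reading. That bound includes the TIMP1 difference of -0.20, which did not pass, and the bound for MMP9 by itself was 0.30. As measured, the change was 0.52 within set A and 1.16 within set B. MMP13 minus TIMP1 also had no overlap, but MMP13 was under the controls in every animal, so no change is given for it. MMP14 minus TIMP2 restates the difference of MMP14 against an inhibitor whose own leading probe set did not pass.

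MMP2 minus TIMP2 went the other way. It averaged 0.19 ± 0.17 in MI and 0.58 ± 0.42 in Sham (SD, n = 8 each), a difference of -0.39 (SE 0.16) with an exact permutation p of 0.0224, also 0.0224 after adjustment. The groups overlapped, since Sham spanned -0.12 to 1.28 and the MI values of 0.01 to 0.56 lay inside that range. It was -0.36 within set A (adjusted exact permutation p = 0.0433) and -0.34 within set B. With each gene taken as the mean of its probe sets it was -0.23 (adjusted exact permutation p = 0.145). MMP14 minus TIMP2 differed by 1.03 within set A and by 1.19 within set B.

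**Figure D3:**
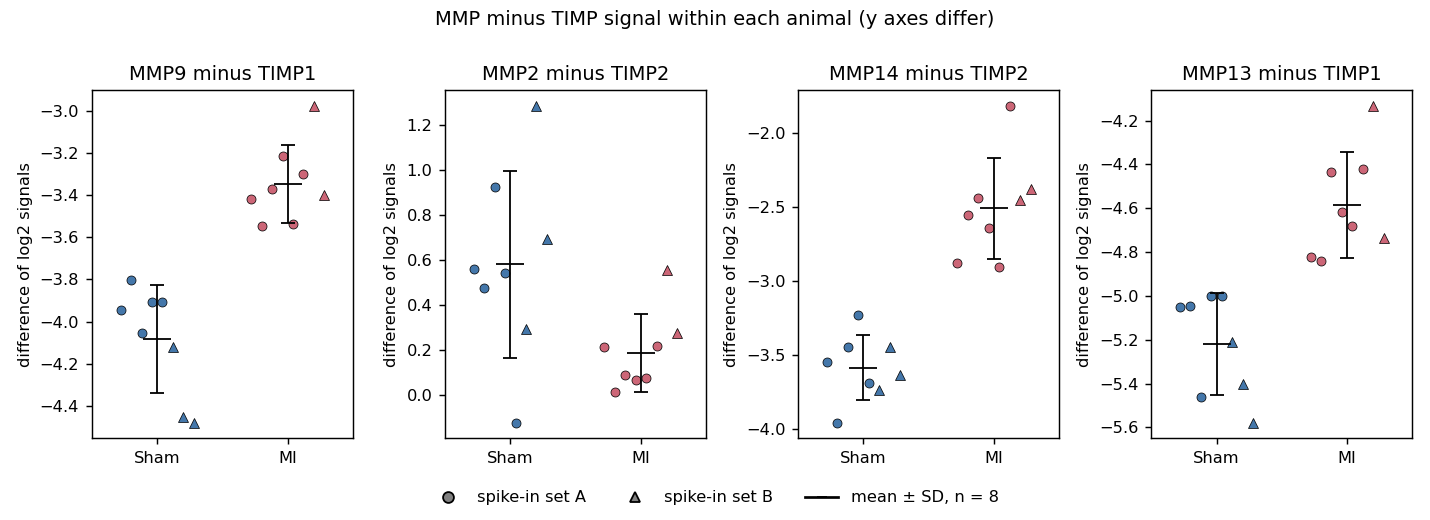
Difference of log2 signals, MMP minus TIMP, within each animal (vertical axes, which differ between panels) for 4 pairs, with 1 point per animal, circles for spike-in set A, triangles for set B, and bars for the mean ± SD of 8 animals. The MI animals lie above all Sham animals for MMP9 minus TIMP1, MMP14 minus TIMP2 and MMP13 minus TIMP1, and toward the lower part of the Sham range for MMP2 minus TIMP2. MMP9 in Sham and MMP13 in both groups were not above the no-target controls.

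Whether animals with more of one member had more of another was asked for 4 pairs, after the mean of each group and sex was taken off. MMP2 and TIMP2 had r = 0.54 and rho = 0.58 over 16 animals (permutation p = 0.0333 and 0.0209, adjusted over 4 pairs 0.133 and 0.0836). The r was 0.81 without the 2 animals farthest from the median. It was 0.41 within set A and 0.23 with the mean of each spike-in set taken off too. MMP14 had r = 0.43 and rho = 0.45 with MMP2 (adjusted permutation p = 0.173 and 0.117), and r = 0.40 and rho = 0.44 with TIMP2 (adjusted permutation p = 0.173 and 0.117). Without the 2 farthest animals these were 0.37 and 0.22, and within set A they were -0.04 and -0.09. MMP9, whose Sham readings were all under the controls, had with TIMP1 r = 0.14 and rho = 0.14 (adjusted permutation p = 0.603 and 0.616, and r = 0.16 without the 2 farthest). In the 11 animals of set A that pair had r = 0.72 and rho = 0.81 (adjusted permutation p = 0.0497 and 0.016, and r = 0.63 without 2), while with the mean of each set taken off over 16 animals it had r = 0.14.

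As a description of MMP14, the genes that tracked it most closely were found over the same 16 animals with group and sex means taken off, among 5920 genes. These were the calpain protease gene CAPN1 (r = 0.891, rho = 0.803), the centromere protein gene CENPB (r = 0.876, rho = 0.779) and NAGPA (r = 0.871, rho = 0.921). None of these 3 genes passed MI against Sham in limma, with adjusted p from 0.227 to 0.947. They were the top of a long ranking over shared arrays and labelling, so no p is given.

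Genes tied to the MMP and TIMP system were followed as lists, described by counts and medians. Over all 6765 genes, 4.12% were higher and 3.5% lower in MI at the same threshold. Only 2 of 17 other listed MMPs were measured, MMP7 (-0.13) and MMP20 (-0.03), both under the controls and neither passing in limma (0 at an unadjusted p under 0.05). Of 14 measured genes of 23 for activation, binding and clearance, 1 was higher and 1 lower. The higher one was ITGAV (8.95 ± 0.25 against 8.57 ± 0.18, SD, n = 8 each, 0.38, limma adjusted p = 0.0226), the integrin subunit alpha V, a cell-surface matrix receptor. It passed without each animal in turn, but not within set A (0.33, adjusted p = 0.156). The lower one was PLG, the gene of plasminogen, whose product plasmin activates several pro-MMPs (4.88 against 5.20, -0.32, adjusted p = 0.0318), and its MI mean was not above the no-target controls. PLG passed in 8 of 16 omissions of an animal, with adjusted p up to 0.0665, and not within set A (-0.31, adjusted p = 0.1).

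Among ADAM and ADAMTS proteases, metalloproteinases of a related family, 7 of 22 were measured and their median difference was 0.31. ADAM9 was higher (0.34, limma adjusted p = 0.0237) and ADAM15 lower (-0.50, adjusted p = 0.00919). ADAM28 was also higher (5.09 against 4.45 as measured, adjusted p = 0.00581). Because only 4 of 8 MI and 0 of 8 Sham animals were above the controls, no fold is given for it. All 3 passed with each animal left out in turn, with the largest adjusted p at 0.0488 for ADAM9. Within set A, ADAM9 differed by 0.33 (adjusted p = 0.0573), and the other 2 passed. ADAM10 and ADAM17, the sheddases that TIMP3 can block, differed by 0.31 (adjusted p = 0.511) and 0.01 (adjusted p = 0.961). Within set A, ADAM10 passed (0.43, adjusted p = 0.0216).

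None of the measured MMP substrates passed. Of 37 listed matrix genes 25 were measured, all above the controls, with 0 passing in limma (2 at an unadjusted p under 0.05), with a median difference of -0.08. The collagen genes COL1A2 and COL3A1 differed by -0.18 (adjusted p = 0.754) and 0.18 (adjusted p = 0.473), and the fibronectin gene FN1 by -0.07 (adjusted p = 0.907). The 9 measured fibroblast markers of 12 had a mean signal of 9.41 to 9.85 in MI and 9.38 to 10.1 in Sham, with 0 passing (0 at an unadjusted p under 0.05). Cathepsins and cystatins, another protease and inhibitor system, had 11 of 16 measured with none passing (0 at an unadjusted p under 0.05) and a median of 0.00. Within set A, where 8.57% of genes passed, 1 of them was higher, CSTB (0.31, adjusted p = 0.0431).

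Of 31 listed inducers and transcription factors of MMP genes 20 were measured, with a median difference of 0.10. Of these 1 passed, where 7.63% of all genes passed in either direction. This was FOSL1 (0.28, limma adjusted p = 0.0435), a component of the AP-1 factor that acts on MMP promoters, and it passed in 4 of 16 omissions of an animal, with adjusted p up to 0.083. The gene of transforming growth factor beta 1, TGFB1, an inducer of TIMP1 and collagen, was at 7.20 ± 0.30 in MI and 7.64 ± 0.42 in Sham (SD, n = 8 each, -0.44, adjusted p = 0.117). It passed when spike-in sets were blocked (-0.36, adjusted p = 0.0168) and within set A (-0.32, adjusted p = 0.0402). IL6, with no group mean above the controls, also passed within set A (0.40, adjusted p = 0.0133). In that fit 8.57% of all genes passed.

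**Figure D4:**
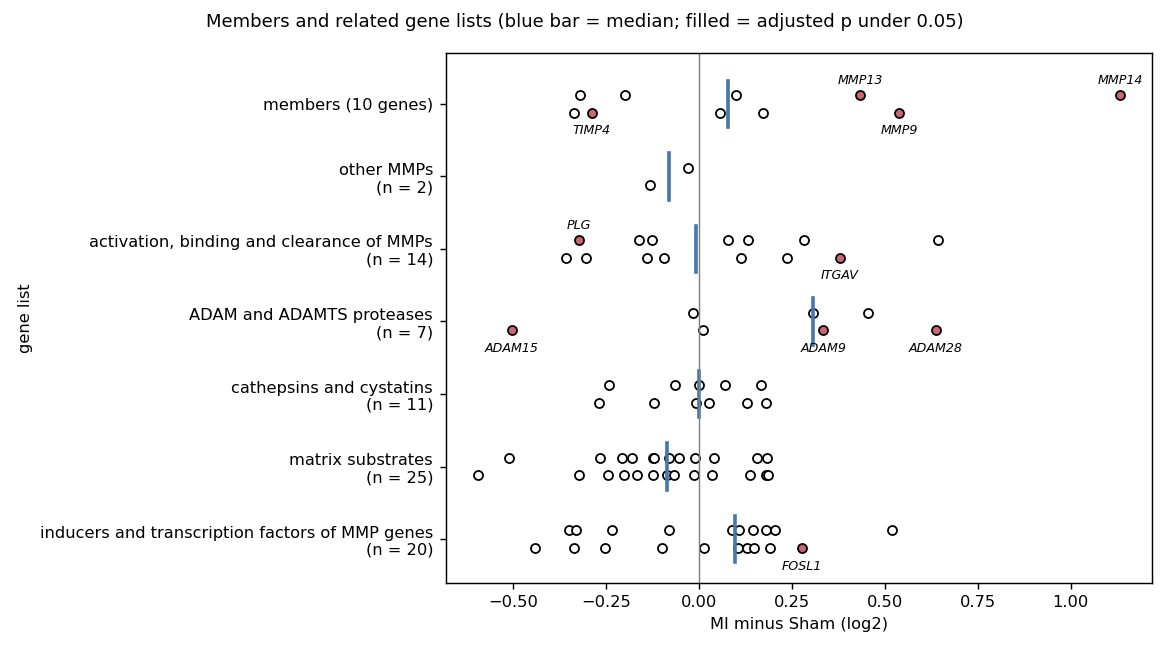
MI minus Sham difference in log2 signal (horizontal axis) of the 10 members and of the measured genes of 6 related lists, 1 point per gene by its leading probe set, filled where the adjusted p was under 0.05, with a blue bar at each list's median. MMP14 at 1.13 lies to the right of every other gene shown, and no matrix substrate or cathepsin is filled.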

How the data were processed

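Left ventricular RNA of 16 pigs was hybridised to 1 Affymetrix porcine array each, after Trizol extraction, column cleaning and biotin labelling, per the labels' protocols. The deposited values were log2 signals of 24123 probe sets, judged so from their range and equal array medians. The software, the summary method and the normalization were not given in the sources used here, and the values were used unchanged. The 124 control probe sets were kept out of the tests. Gene names came from the platform annotation: 10069 probe sets had 1 symbol, 198 several and 13732 none.

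Differences were fitted in R 4.3.3 with limma 3.58.1 on all 16 arrays, with 1 coefficient for each group and sex (12 residual degrees of freedom, prior 3.28), and adjusted by Benjamini-Hochberg over 23999 probe sets. Single values per animal were compared by exact permutation in Python (scipy 1.17.1), and correlations by 100000 permutations. The model was first checked on simulated arrays. With no counts behind array signals, precision is limited by how many animals there were and by how far a signal stood over the no-target controls.

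The named genes were all 10 members with every probe set, the 3 genes most like MMP14 (those like MMP9, dim in Sham, are not given), the listed genes that passed, and listed genes tied to a member's role. Cell types were checked with marker lists. The members and lists were chosen with earlier results of these data known. Alternatives were another design, scaling, filter, offset, variance model, probe set rule or spike-in set, and each animal left out. A test of group by spike-in set was added after seeing the data. Same-numbered MI and Sham animals are different pigs, so numbers were not taken as pairs in the main fit. Their deviations from the means of group and sex correlated from -0.22 to 0.50, with 5 of 8 over 0.1. The same number was the best match in 3 of 8. These correlations cannot settle whether numbers share a factor, since the spike-in sets were not taken off.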

Additional observations from a re-analysis of the deposited data

Results flagged for a closer look

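An animal far from the other 7 of its group was found in 6 of 44 groups of 8 tested (the groups of the members' probe sets and of the MMP minus TIMP values), where chance flags about 1 in 20. MMP14 was low in Sham 2 at 5.26, and MMP14 passed without that animal. MMP13 (Ssc.16053.1.S1_at) was low in MI 8 at 3.81 and in Sham 8 at 3.44, and both animals belong to spike-in set B. TIMP2 (Ssc.11257.1.S1_at) was low in MI 6 at 8.86. MMP3 was high in Sham 4 at 4.49 with Ssc.15927.1.A1_at and high in MI 2 at 3.52 with Ssc.15927.2.S1_at, both under the no-target controls.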

How the results depend on the processing

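The 3 genes higher in MI passed in all fits that left out 1 animal (3 to 3), and no result that passed changed sign. The number of higher genes fell to 0 in spike-in set B alone, where 1 of 23999 probe sets passed. It was 2 with each gene as the mean of its probe sets, where MMP13 did not pass. The 16000 brightest probe sets held 5 members, without MMP9 and MMP13, and 1 was higher (MMP14). Those above the controls held 6 members, without MMP13, and 2 were higher. The 1 lower gene, TIMP4, became 0 in set B alone, with the mean of its probe sets and at an adjusted p under 0.01. It ranged from 0 to 1 over the omissions. TIMP4 was not tested among the 16000 brightest or above the controls, because both filters removed it. MMP2 minus TIMP2 was -0.23 with means of probe sets, and MMP9 with TIMP1 had r = 0.72 in set A alone. Over all probe sets 2527 passed, 654 among the 16000 brightest and 739 of 16333 above the controls. With the animal number as a replicate block 2645 passed, MMP14, MMP9 and MMP13 passed, and TIMP4 did not (-0.29, adjusted p = 0.0804), leaving 0 lower genes. Adding 32 to each linear signal shrank dim differences by construction, to 0.27 for MMP9 and 0.13 for MMP13. Signs turned only for results that did not pass: in set A, MMP1 (-0.0067), TIMP1 (0.0006) and the correlation of MMP14 with MMP2 (-0.038, and -0.10 with set means taken off) and with TIMP2 (-0.093), TIMP2 with the mean of its probe sets (-0.10), and over the omissions TIMP2 Ssc.11257.1.S1_at (-0.0049 to 0.13) and TIMP3 Ssc.16028.1.A1_at (-0.037 to 0.032). Several contrasts by sex also turned when spike-in sets were blocked, none of them passing. Among them, in males, TIMP3 Ssc.16028.1.S1_at went from 0.11 to -0.05 and TIMP2 Ssc.11257.1.S1_at from -0.09 to 0.06. The interactions of group and sex turned for MMP14 (0.06 to -0.23) and MMP2 (0.28 to -0.19), among others. The sample region, the software and the probe sequences were not known here.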

Other observations

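All 10 members were found by Entrez identifier in RefSeq (assembly Sscrofa11.1), which places MMP1, MMP3 and MMP13 in 1 cluster together with MMP8, MMP12 and MMP27, genes that carry no named probe set here. TIMP1, TIMP3 and TIMP4 each lie within a synapsin gene. SYN1, the host of TIMP1, differed by -0.05 (limma adjusted p = 0.899), and SYN2, the host of TIMP4, by -0.02 (adjusted p = 0.9). Of 15 measured genes within 2 places of a member, members aside, 2 passed MI against Sham, where 7.63% of all genes passed in either direction. CFP, the properdin gene of the complement system next to TIMP1, was lower by -0.25 (adjusted p = 0.0254). PPARG, a nuclear receptor of lipid metabolism next to TIMP4, was higher by 0.71 (adjusted p = 0.0076). MMP14's neighbours LRP10 (-0.15, adjusted p = 0.626) and MRPL52 (-0.08, adjusted p = 0.716) did not pass.

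Other blood and immune cell markers were read beside the members. Over all 6765 genes, 4.12% were higher and 3.5% lower in MI at the same threshold. Of 12 lymphocyte markers measured, 4 were higher in MI (CD3D 0.43, CD8B 0.30, CD247 0.34 and IL7R 0.32) and CD4 was lower by -0.24. Across the 12, 8 differences were positive, while CD3E (-0.26), CD8A (-0.10) and CD2 (-0.08) pointed down without passing. IL7R and CD4 were not above the no-target controls in either group mean, and IL7R did not pass when spike-in sets were blocked (adjusted p = 0.0517). With each animal left out in turn, CD3D and CD8B passed in 16 of 16 fits, CD247 in 13, IL7R in 7 and CD4 in 3. Of 8 mast cell genes 2 were measured. The receptor gene MS4A2 was higher by 0.69 (limma adjusted p = 0.0425), passing in 5 of 16 such fits, and KIT did not pass (0.55, adjusted p = 0.328). Of 7 erythroid genes 4 were measured. HBM and AHSP were higher by 1.10 and 0.83 (adjusted p = 0.00843 and 0.0376), passing in 16 and 5 such fits. HBB (-0.06, adjusted p = 0.817) and ALAS2 (0.59, adjusted p = 0.22) did not pass. The part of these cells in the members' differences was not tested.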
